A study of Mus musculus with 26 samples.

Results

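The Rhox genes are a cluster of reproductive homeobox genes on the X chromosome, and the 8 members that are present as single copies, *Rhox1*, *Rhox5*, *Rhox8*, *Rhox9*, *Rhox10*, *Rhox11*, *Rhox12* and *Rhox13*, were taken by symbol from the 23337 genes of the count tables. The study sequenced RNA of 3 tissues of ArKI and WT males, the initial segment (IS) and the caput, which are the first segments of the epididymis, and the testis. ArKI males carry a knock-in allele on their only X chromosome, and WT males carry the unaltered allele. Both genotypes were on the C57Bl/6N; 129 hybrid background, were 3 months old and received no treatment. There were 5 WT and 5 ArKI samples of the IS, 5 and 5 of the caput, and 3 and 3 of the testis. The allele was made in hybrid ES cells, and it is present in every cell of the animal. Which stretches of the X chromosome around the allele came from the ES cells in the ArKI mice was not analysed here, and such stretches and the allele cannot be told apart.

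The Rhox genes encode homeodomain proteins, which bind DNA and control transcription, and they are known for expression in the testis, epididymis, ovary and placenta. *Rhox5*, also called *Pem*, is the founding member. It is a classical androgen-responsive gene of the Sertoli cells, the somatic cells that nurse the germ cells, and of the caput epithelium. *Rhox8* is also transcribed in Sertoli cells, whereas *Rhox10* and *Rhox13* are known from germ cells.

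To show how the members resemble each other and how their reads can be told apart, a feature that all 8 share in the GENCODE transcripts of GRCm38 is printed here, a coding exon of exactly 46 bases, which lies in the homeobox. The exon of *Rhox5* is at chrX:37806074-37806119 on the plus strand and that of *Rhox8* at chrX:37876223-37876268 on the minus strand. Each is given from 5′ to 3′ in the direction of transcription, and capitals mark the 8 positions that hold the same base in all 8 genes.
Rhox1: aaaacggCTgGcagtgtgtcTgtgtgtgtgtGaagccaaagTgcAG
Rhox5: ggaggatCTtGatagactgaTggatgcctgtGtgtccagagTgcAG
Rhox8: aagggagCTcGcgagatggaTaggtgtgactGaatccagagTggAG
Rhox9: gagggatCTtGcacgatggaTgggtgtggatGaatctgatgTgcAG
Rhox10: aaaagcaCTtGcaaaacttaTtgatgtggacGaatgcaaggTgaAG
Rhox11: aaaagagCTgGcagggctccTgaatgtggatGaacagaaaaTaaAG
Rhox12: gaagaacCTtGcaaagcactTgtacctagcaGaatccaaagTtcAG
Rhox13: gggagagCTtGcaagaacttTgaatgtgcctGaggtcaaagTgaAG

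Across the 28 pairs of members these exons were identical at 45.7% to 71.7% of the positions, with a median of 58.7%. The closest pair was *Rhox8* and *Rhox9*, identical at 33 of 46 positions. In all 8 genes the tryptophan and phenylalanine codons that mark the DNA recognition helix of a homeodomain followed the exon within 7 codons. The protein-coding Rhox genes, 33 in the annotation, span 0.916 Mb of the X chromosome, at chrX:37213804-38129966 in GRCm38, with *Rhox1* at one end and *Rhox13* at the other. Since the authors counted only reads that mapped to 1 place, the uniqueness of each gene matters for its count. Of all 50-base windows of the transcripts, the length of a read, none was shared with another gene for *Rhox1*, *Rhox5*, *Rhox10*, *Rhox11*, *Rhox12* and *Rhox13*. For *Rhox8* 9.87% of the windows were shared, none of them with a Rhox gene, and for *Rhox9* 19.1% were shared, all with *Rhox6*. Over the 34 other Rhox genes and pseudogenes of the annotation the median was 70.5%. No exon of another GENCODE gene overlapped the exons of these transcripts. The RefSeq exons on which the authors counted were not checked for overlap.

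The bases before the RefSeq start of *Rhox5*, the member with the most counts in the caput, are given as well. RefSeq places the start of *Rhox5* at position 37754608 of the X chromosome, and GENCODE places that of the transcript used here at 37804842, 50.2 kb further on. *Rhox5* is known to be transcribed from a distal and a proximal promoter, and gene counts do not tell transcripts of different starts apart. The window printed here lies before the upstream one of these starts, and the sequence before the GENCODE start was not analysed here, so the window cannot be tied to the *Rhox5* counts of the caput. The 250 bases before the RefSeq start, chrX:37754358-37754607 on the plus strand of GRCm38.p6, are printed with capitals for AGAACA, the half-site of the androgen response element, and for CCAAT, each searched on both strands.
*Rhox5* upstream RefSeq start: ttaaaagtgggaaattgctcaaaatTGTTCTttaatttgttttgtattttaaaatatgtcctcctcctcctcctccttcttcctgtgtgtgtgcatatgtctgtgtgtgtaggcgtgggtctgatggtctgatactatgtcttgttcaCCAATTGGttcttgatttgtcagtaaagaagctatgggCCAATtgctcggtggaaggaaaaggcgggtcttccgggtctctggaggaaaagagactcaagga

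This window held 1 AGAACA half-site and 3 CCAAT boxes, with an overlapping pair among them. The half-site was present in 16.1% and the CCAAT box in 33.9% of the 32851 RefSeq promoter windows. These windows hold 250 bases before and 50 after each start, and only the 250 bases before it were searched. Of the 6 members with an entry in that set, *Rhox1*, *Rhox5* and *Rhox13* had a half-site and *Rhox10*, *Rhox11* and *Rhox12* had none. *Rhox8* and *Rhox9* had no entry. A match of 6 letters is a description of the sequence and not a binding site.

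Total counts per sample were 5829074 to 9770625 in the IS, 4125768 to 11913469 in the caput and 14077013 to 21376604 in the testis, where the lowest caput total is that of ArKI caput replicate 2. Levels are given as CPM, which relate each count to the library size with edgeR's TMM factors for each tissue. The floor of detection was set at 3 counts in a sample, and its range on this scale was 0.313 to 0.512 CPM for IS, 0.247 to 0.692 for caput and 0.141 to 0.216 for testis samples. Floors, and the intervals of ratios of summed counts, cover counting error only. By the study's methods the IS and the caput came from the same mice, but nothing says which samples share a mouse, so tests between the segments treat them as separate samples. The p-values measure the spread between these samples. In bulk tissue, fewer cells of a type and less RNA per cell cannot be told apart.

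*Rhox5* was present in every WT caput sample and was not detected in any ArKI caput sample. The counts in the 5 WT samples were 56, 68, 52, 43 and 53, which is 5.73, 7.38, 6.07, 5.23 and 6.18 CPM. In the 5 ArKI samples the count was 0, although the deepest of the caput samples had 11913469 counts. The groups did not overlap. With the mean of 6.12 ± 0.794 CPM (SD, n = 5) in WT set against 3 counts in each ArKI library, the decrease of *Rhox5* was at least 16.8-fold (Benjamini-Hochberg adjusted p = 1.66e-08 over 13726 genes, edgeR's quasi-likelihood test). *Rhox5* was the only member with enough counts in the caput to pass the filter on low counts, which it did through the WT samples, and it met both limits for a call, which were an FDR of 0.01 and a fold change of 2. Of all genes tested, 2.55% were called lower and 2.43% were called higher by the same rule.

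*Rhox8* showed the same direction at a much lower level. Its counts in the WT caput were 2, 3, 5, 3 and 7, and in the ArKI caput 0, 0, 1, 0 and 0. Every WT sample was above every ArKI sample in CPM. The mean was 0.459 ± 0.242 CPM (SD, n = 5) for WT samples and 0.0177 ± 0.0395 (SD, n = 5) for ArKI samples. Because *Rhox8* was below the filter, it was compared by an exact two-sided permutation test of log2(CPM + 0.5), which gave a difference of -0.86 on that scale and p = 0.00794, the smallest p that 5 against 5 samples allow. Summed over the samples there were 20 counts in WT and 1 in ArKI, a ratio of ArKI to WT of 0.0464 with a 95% interval from 0.00112 to 0.290 by the exact binomial method. With no filter beyond a single count, *Rhox8* was called lower as well (adjusted p = 0.00145 by edgeR's quasi-likelihood test).

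*Rhox10*, a germ cell member, had 0, 3, 6, 3 and 0 counts in the WT caput and 1, 0, 3, 0 and 1 in the ArKI caput. The groups overlapped, and the exact two-sided permutation test gave p = 0.310 for a difference of -0.33 in log2(CPM + 0.5). The ratio of the summed counts, 12 in WT and 5 in ArKI, was 0.386 with a 95% interval from 0.107 to 1.18. Of *Rhox13* there was 1 count in 1 WT caput sample. *Rhox1*, *Rhox9*, *Rhox11* and *Rhox12* had 0 counts in all caput samples, and this depth could not show a difference.

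**Figure D1:**
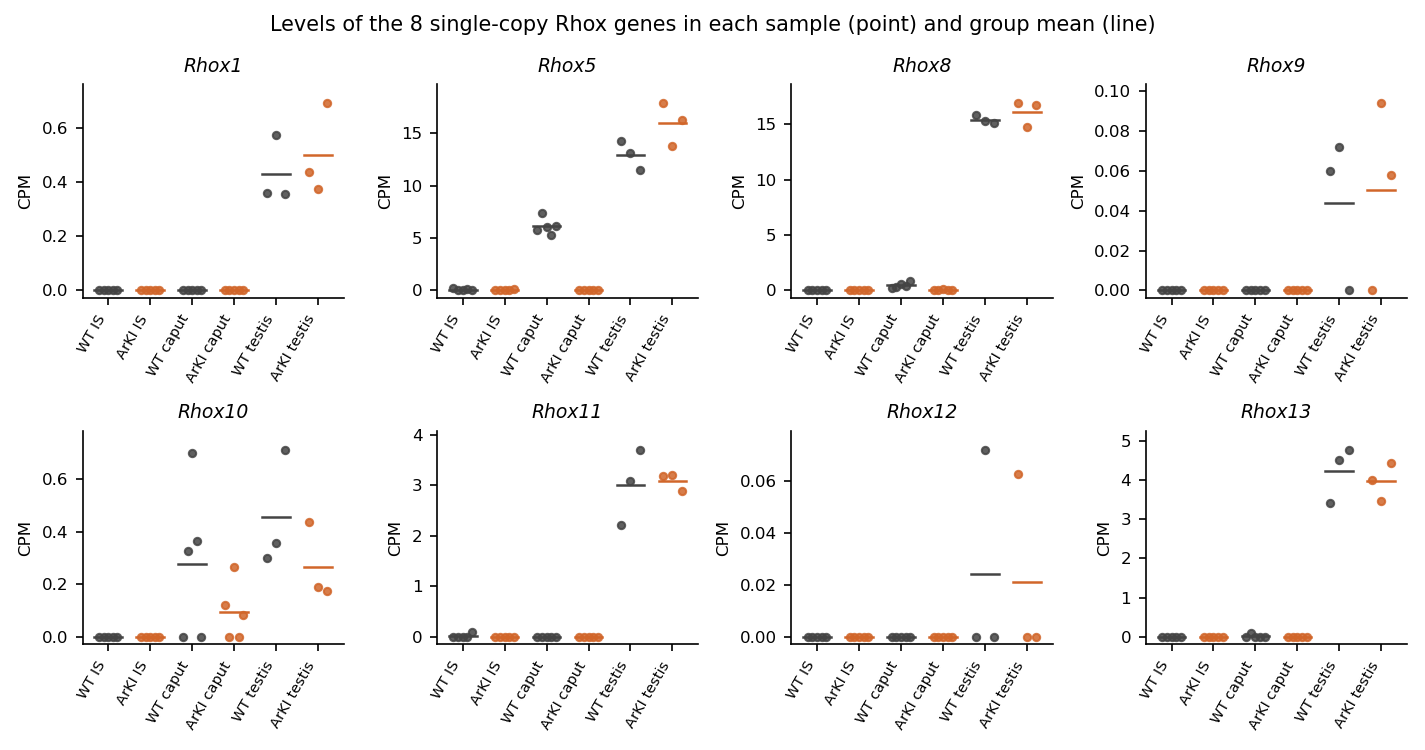
Level in CPM (vertical axes, scaled within each tissue, a separate linear scale for each gene) of the 8 Rhox genes in every sample, with WT samples in grey, ArKI samples in orange and lines at the group means. Rhox5 lies between 5.23 and 7.38 CPM in the WT caput and at 0 in all 5 ArKI caput samples. In the testis the ranges of the WT and ArKI samples overlap for each gene.

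Late spermatid and sperm RNA fell in the same samples. In the caput 7 of the 8 genes of that list passed the filter and all 7 were called lower in ArKI mice. They were *Tnp1*, *Tnp2*, *Odf1*, *Akap4*, *Smcp* and the protamine genes *Prm1* (log2 fold change -3.34, standard error 0.33, adjusted p = 3.81e-05 by edgeR's test) and *Prm2* (-3.10, standard error 0.44, adjusted p = 0.00101). Their summed level ranged from 215 to 338 CPM in the WT caput and from 35.1 to 95.4 CPM in the ArKI caput, and none of the 8 genes was at 0 throughout. Measured within a sample, *Rhox5* had 18.0 to 34.3 counts per 1000 counts of the sperm list in the WT caput, against 0.631 to 0.914 in the WT testis. The caput and the testis were sequenced in different batches, and tissue and batch cannot be told apart in these values, which are given as a description.

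Among markers of Sertoli cells, the testis cell type known for *Rhox5*, the receptor gene *Fshr* had 0 counts in all caput samples and *Gata1* had 1 count in each genotype. Of the 4 genes of that list tested in the caput, *Cldn11* (log2 fold change -1.32) and *Aard* (-2.22) were called lower, and *Sox9*, which is also made in the epididymal epithelium, changed by 0.74 on the log2 scale (adjusted p = 1.51e-07 by edgeR's test), which is below a fold of 2. The summed level of the Sertoli list was 73.1 to 81.9 CPM in WT and 94.8 to 112 CPM in ArKI caput. Within that list *Sox9* and *Wt1* (0.65, adjusted p = 0.0692 by edgeR's test) had log2 fold changes above 0, unlike *Cldn11* and *Aard*. The sum therefore does not measure RNA of Sertoli cells alone. The part of these lists in the loss of *Rhox5* counts was not tested. For other caput cell types, none of 5 basal cell, 5 smooth muscle and 5 macrophage genes tested was called or passed an FDR of 0.05. Of the 4 clear cell genes none was called, and the proton pump genes *Atp6v1b1* (0.61, adjusted p = 0.00036), *Atp6v1g3* (0.38, adjusted p = 0.00149) and *Atp6v0d2* (-0.25, adjusted p = 0.00775) passed that FDR with a fold below 2. None of the 5 genes of initial segment principal cells was called, with *Ros1* at 0.36 (adjusted p = 0.000107) and *Cst8* at -2.01 (adjusted p = 0.169). *Cst8* ranged from 15.1 to 327 CPM among the WT and from 7.82 to 85.6 CPM among the ArKI caput samples. Of the 4 genes of the spermatogonia list tested, *Zbtb16*, which is also a steroid-responsive gene of other tissues, was called higher (2.04, adjusted p = 3.87e-10). The others, *Kit* (-0.24, adjusted p = 0.0125 by edgeR's test), *Id4* (-0.20) and *Gfra1* (-0.10), were below 0 and not called.

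The Rhox genes were at the floor of detection in the IS of both genotypes. *Rhox5* had 2, 0, 0, 1 and 0 counts in WT and 0, 0, 0, 0 and 1 in ArKI samples, *Rhox11* had 1 count in 1 WT sample, and the other 6 members had 0 counts in all 10 samples. None passed the filter, and this depth could not show a difference between genotypes. Among the 13434 genes tested in the IS, 1.32% were called lower and 2.72% higher in ArKI mice. Listed genes called lower there were *Crisp1*, a secretory protein gene of the epididymal epithelium (log2 fold change -2.58), the smooth muscle genes *Myh11* (-1.03) and *Cnn1* (-1.10), *Cldn11* (-1.02), and the sperm genes *Prm2* (-4.11) and *Odf1* (-2.46), and *Zbtb16* (1.57) was called higher.

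In WT mice *Rhox5* therefore differed between neighbouring segments of one duct. Set against 3 counts in each WT IS library, it was at least 16.9-fold higher in the WT caput than in the WT IS (Benjamini-Hochberg adjusted p = 9.11e-12 over 14329 genes, edgeR's quasi-likelihood test), and it was the single member tested. Of those genes 11.4% were called higher and 10.2% lower in the WT caput. With no filter beyond a single count, *Rhox8* (adjusted p = 0.000133) and *Rhox10* (adjusted p = 0.0088) were called higher in the WT caput too. Cell type markers moved with this difference. All 7 late spermatid and sperm genes tested were called higher in the WT caput than in the WT IS (median log2 fold change 2.23), with a summed level of 9.81 to 65.7 CPM in the WT IS. Of the initial segment principal cell genes 4 of 5 were called lower (median -4.45), and of the clear cell genes 3 of 4 were called higher (median 1.33). Of the basal cell and of the macrophage genes, 3 of 5 each were called lower. Their part in the rise of *Rhox5* was not tested. The androgen-dependent caput genes *Lcn5* (7.52) and *Ces5a* (6.02) were called higher and *Lcn8* (-4.72), *Lcn9* (-4.41) and *Cst11* (-2.47) lower. Of the promoter factors *Ets1* (-1.43) and *Runx1* (-2.19) were called lower, and of the androgen-dependent Sertoli genes *Drd4* (4.30) and *Cldn3* (1.21) higher. In ArKI mice both segments were at or below the floor, and no fold is given. *Rhox5* was not called in that comparison (adjusted p = 0.245 by edgeR's test), where 9.64% of genes were called lower and 10.1% higher in the caput.

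Whether the genotype difference of *Rhox5* differed between the segments was tested as a genotype by segment interaction over all 20 samples of the epididymis. The adjusted p was 0.0344 by edgeR's quasi-likelihood test, above the threshold of 0.01 that 4.23% of genes passed in the lower and 3.95% in the higher direction. The size of the interaction rests on an IS level at the floor and is not given as a fold. With DESeq2 (adjusted p = 7.2e-05) and with limma on voom values (adjusted p = 7.47e-07) *Rhox5* passed the threshold. Without ArKI IS replicate 5, the only ArKI sample of the IS with a *Rhox5* count, the edgeR interaction could not be estimated and its adjusted p was 1.00.

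All 8 members had counts in the testis, and 4 of them, *Rhox5*, *Rhox8*, *Rhox11* and *Rhox13*, passed the filter and were tested. None of these was called by the limits used there, an FDR of 0.2 and a fold change of 2. Of the 15838 genes tested, 0.0821% were called lower and 0.751% higher by this rule. *Rhox5*, which was at 0 in the ArKI caput, had 237, 183 and 161 counts in the WT testis and 285, 294 and 281 counts in the ArKI testis. This is 14.2, 13.2 and 11.5 CPM in WT and 17.9, 13.8 and 16.2 CPM in ArKI, and the groups overlapped by 1 sample. The log2 fold change was 0.29 with a standard error of 0.11 and a 95% interval from 0.0685 to 0.514, and its adjusted p was 0.253 by edgeR's quasi-likelihood test over all genes, with an unadjusted p of 0.018. Reads of *Rhox5* from ArKI mice were aligned and counted in the testis, and why there were none in the ArKI caput was not tested.

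*Rhox8*, the other Sertoli member, had 264, 213 and 212 counts in the WT testis and 270, 315 and 290 in the ArKI testis, 15.8, 15.3 and 15.1 CPM against 16.9, 14.8 and 16.8 CPM. Its log2 fold change was 0.06 (standard error 0.10, 95% interval -0.128 to 0.253, adjusted p = 0.839 by edgeR's test). *Rhox13*, a germ cell member, was 3.42, 4.53 and 4.78 CPM in WT and 4.01, 3.48 and 4.45 CPM in ArKI, which gave -0.09 on the log2 scale (standard error 0.17, 95% interval -0.429 to 0.251, adjusted p = 0.880). *Rhox11* was 2.22, 3.09 and 3.71 CPM in WT and 3.20, 3.20 and 2.89 CPM in ArKI, which gave 0.06 on the log2 scale (standard error 0.20, 95% interval -0.332 to 0.448, adjusted p = 0.937). None of the 4 intervals reached a fold change of 2.

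The remaining members had 12 counts or fewer in each sample. *Rhox1* had 6, 8 and 5 counts in the WT and 7, 8 and 12 in the ArKI testis, with p = 0.50 by the exact two-sided permutation test, for which 3 against 3 samples cannot give less than 0.10. *Rhox10* had 5, 5 and 10 counts in WT and 7, 4 and 3 in ArKI, with p = 0.30 by the same exact test, and a ratio of the summed counts of 0.573 with a 95% interval from 0.268 to 1.19. *Rhox9* had at most 2 counts and *Rhox12* at most 1 count in any testis sample. The 24 other Rhox rows of the tables, which are those of the duplicated families, of *Rhox6* and of pseudogenes, summed to 160 counts over the 6 testis samples with at most 10 in a sample, to 1 count in the IS and to 0 in the caput.

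*Rhox5* could also be set against *Rhox8* within each sample, which does not depend on library scaling. Of the counts of both genes, *Rhox5* made up 47.3%, 46.2% and 43.2% in the WT testis and 51.4%, 48.3% and 49.2% in the ArKI testis. Every ArKI sample was above every WT sample, a difference of 4.05 percentage points with p = 0.10 by the exact two-sided permutation test, the smallest that 3 against 3 allow. In the WT caput the share of *Rhox5* was 96.6%, 95.8%, 91.2%, 93.5% and 88.3%. It was 93.1% ± 3.37 (SD, n = 5), 47.5 percentage points above the WT testis at 45.6% ± 2.15 (SD, n = 3), and the samples did not overlap (exact two-sided permutation test, p = 0.0357, the smallest that 5 against 3 allow). Here too tissue and batch differ together. The WT caput shares rest on 2 to 7 *Rhox8* counts in a sample, and the tests of the share were not among the planned tests.

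**Figure D2:**
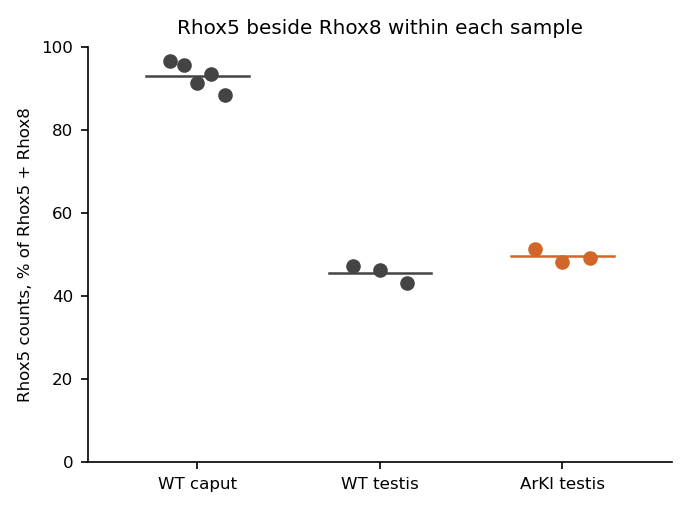
Counts of Rhox5 as a percentage (vertical axis) of the counts of Rhox5 and Rhox8 together in each WT caput, WT testis and ArKI testis sample (points), with lines at the group means. The 5 WT caput samples lie between 88.3% and 96.6% and the 6 testis samples between 43.2% and 51.4%.

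Sertoli cell genes did not pass the limits for a call in the testis. All 8 marker genes of Sertoli cells were tested and none was called, with a median log2 fold change of 0.00189 and a range from -0.0928 to 0.082. Of the 5 androgen-dependent Sertoli genes tested, none passed the fold change limit. *Eppin*, a protease inhibitor gene (log2 fold change 0.45, standard error 0.11, adjusted p = 0.0301 by edgeR's test), and *Serpina5*, another protease inhibitor gene (0.44, standard error 0.07, adjusted p = 0.000924), were higher in ArKI mice at an FDR below 0.05. *Drd4* (0.34), *Tubb3* (0.10) and *Cldn3* (-0.23) were not past that FDR. Of the known *Rhox5* targets in Sertoli cells, *Unc5c*, a netrin receptor gene, was at -0.63 ± 0.33 (log2 fold change ± standard error, adjusted p = 0.418 by edgeR's test) from 46 counts in WT and 36 in ArKI, and the insulin gene *Ins2* was below the filter. In the Leydig cell list, which holds the genes of testosterone synthesis, none of 6 genes was called, and *Cyp11a1* (0.92, adjusted p = 1.05e-06) and *Cyp17a1* (0.59, adjusted p = 4.35e-05) were higher at an FDR below 0.05. Their part in the level of *Rhox5* was not tested.

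**Figure D3:**
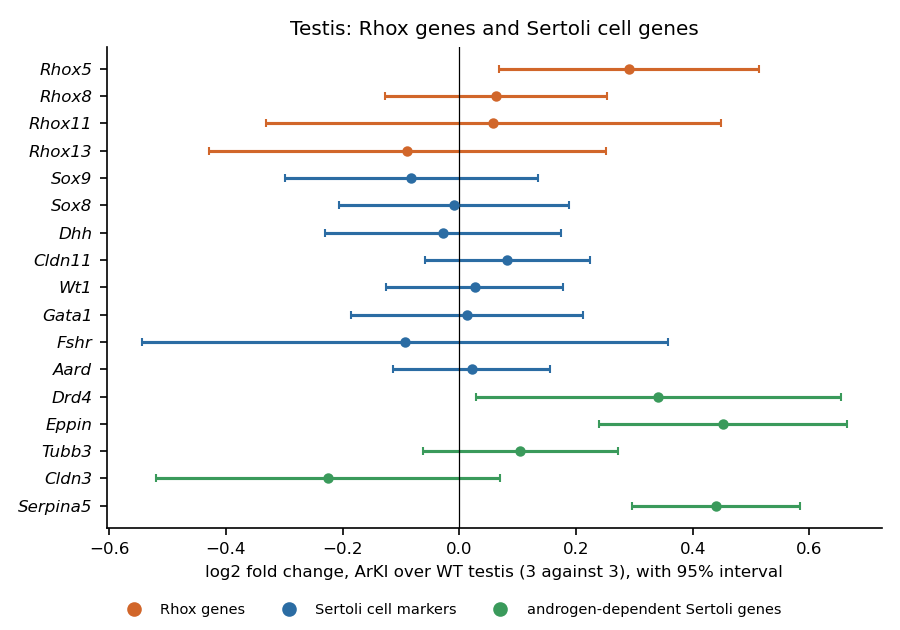
Log2 fold change of ArKI over WT testis (horizontal axis, 3 against 3 samples) with its 95% interval for the 4 Rhox genes tested, 8 Sertoli cell markers and 5 androgen-dependent Sertoli genes. The interval of Rhox5 runs from 0.0685 to 0.514, and those of the other 3 Rhox genes and of all 8 markers include 0.

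The difference between the tissues was itself tested, in a fit of the 16 caput and testis samples that was added after the values had been seen. The ArKI difference in the caput was lower than that in the testis for *Rhox5* (adjusted p = 2.33e-10) and for *Rhox8* (adjusted p = 0.000398), both by edgeR's quasi-likelihood test over 16898 genes. *Rhox8* passed the filter of this fit through its testis counts, and its caput part rests on the 21 counts given above, with WT levels around the floor and 1 count in ArKI mice, so no size is given for either gene. With no filter beyond a single count its adjusted p was 0.000315. For *Rhox13* the adjusted p was 0.486. For *Rhox11* the caput had no counts, so no difference could be estimated. Of all genes 5.81% were called lower and 2.30% higher in this comparison at an FDR below 0.01. Each genotype difference is taken within a tissue and sequencing batch.

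For the order of the tissues the 13 WT samples were scaled together, and levels are given per length as RPKM from the GENCODE transcript lengths. The sequencing batch also separates the testis from both epididymal segments in these comparisons. *Rhox5* was 21.2 ± 2.22 RPKM (SD, n = 3) in the testis, 7.55 ± 0.996 (SD, n = 5) for the caput and 0.0941 ± 0.136 (SD, n = 5) for the IS. The testis exceeded the caput by 1.48 on the log2 scale (standard error 0.15, adjusted p = 1.46e-09 by edgeR's quasi-likelihood test) without overlap, so that the caput level was 35.7% of the testis level.

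*Rhox8* was 15.8 ± 0.329 RPKM (SD, n = 3) in the testis and 0.355 ± 0.187 (SD, n = 5) in the caput, 5.46 apart on the log2 scale (adjusted p = 2.79e-15, standard error 0.22), and its caput level was 2.25% of the testis level. For *Rhox10* that share was 45.9%, from 12 counts in the WT caput and 20 in the WT testis with overlapping samples. The testis exceeded the caput at least 16.6-fold for *Rhox13* and at least 11.7-fold for *Rhox11*, against 3 counts in each caput library (adjusted p = 1.05e-11 and 1.22e-10 by edgeR's test). These 4 genes were called higher, but all except *Rhox5* passed the filter only through their testis counts, so their number is not read against the 38.1% of 16402 genes called higher and 31.2% called lower. With no filter beyond a single count, *Rhox1* was called higher too (adjusted p = 6.67e-05), and *Rhox9* (adjusted p = 0.135), *Rhox10* (0.184) and *Rhox12* (0.291) were not called by edgeR's test. Against the IS the testis was at least 47.6-fold higher for *Rhox5*, 56.6-fold for *Rhox8*, 15.6-fold for *Rhox13* and 11.0-fold for *Rhox11*. Apart from *Rhox5* they entered the test only through the testis, and of all genes 38.5% were called higher and 30.9% lower. Without the filter *Rhox1* (adjusted p = 8.82e-05) and *Rhox10* (0.000474) were called higher as well, and *Rhox9* (0.145) and *Rhox12* (0.303) were not.

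Within the WT testis, scaled by itself, the order of the levels per length was *Rhox5* at 17.2 ± 1.83 RPKM, *Rhox8* at 12.8 ± 0.314, *Rhox13* at 4.84 ± 0.824, *Rhox11* at 3.71 ± 0.921, *Rhox10* at 0.600 ± 0.293, *Rhox1* at 0.487 ± 0.142, *Rhox9* at 0.0498 ± 0.0437 and *Rhox12* at 0.0260 ± 0.0451 (SD, n = 3 for each). Per length, *Rhox5* and *Rhox8* did not overlap over the samples, and neither did *Rhox8* and *Rhox13*. Before division by transcript length *Rhox8* was above *Rhox5* in the WT testis, with a mean of 15.42 CPM against 12.95 CPM. *Rhox13* and *Rhox11* overlapped, as did *Rhox10* and *Rhox1*, and *Rhox9* and *Rhox12*. The order of the 6 highest members in the ArKI testis was the same except that *Rhox1*, at 0.569 RPKM, was above *Rhox10*, at 0.350 RPKM, with overlapping samples.

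Factors that are known to act at Rhox promoters and genes around the cluster were listed as well. Of the 8 factors reported for *Rhox5* promoters, 6 were tested in the caput and none was called. Past an FDR of 0.05 there, *Ets2*, an Ets family factor, was higher (0.54, adjusted p = 7.25e-06), and *Runx1* was lower (-0.51, adjusted p = 0.000929). *Gata4*, a GATA factor of Sertoli cells, had 0 counts in the WT caput and 1 in the ArKI caput, against 1292 in the WT testis. None of the 8 was called in the testis or passed an FDR of 0.05 there. Of the 8 genes for DNA methylation and silencing, 7 were tested in the caput and none was called. *Uhrf1*, the factor that guides the maintenance methyltransferase (0.60, adjusted p = 0.016), *Trim28* (0.20, adjusted p = 0.00461) and *Dnmt3a* (0.21, adjusted p = 0.0424) were higher and *Mbd2* (-0.15, adjusted p = 0.0343) was lower at an FDR below 0.05 by edgeR's test. In the IS *Uhrf1* (0.79, adjusted p = 0.000399) and *Dnmt3a* (0.32, adjusted p = 0.0013) were higher too, and in the testis none of the 8 passed that FDR. Their part in the level of *Rhox5* was not tested.

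Among 8 androgen-dependent genes of the caput epithelium, all 8 were tested in the caput and 1 was called lower, against 2.55% of all genes tested there. It was *Ces5a*, a carboxylesterase gene (log2 fold change -3.81, standard error 0.32, adjusted p = 4.17e-05 by edgeR's test). The median of the 8 was -0.23, where the median of all genes tested in the caput was 0.00168. Of the 5 genes on either side of the Rhox cluster, 7 of 10 were tested in the caput and the IS and 8 of 10 in the testis, and none was called in any tissue. In the caput *Tmem255a* (0.67, adjusted p = 0.0194) was higher and *Lamp2* (-0.19, adjusted p = 0.0249) lower at an FDR below 0.05.

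The genes whose level followed that of *Rhox5* most closely over the 20 epididymal samples, by Pearson's r of log2(CPM + 0.5) across 14329 genes, were *Ppa1* (r = 0.96), a pyrophosphatase gene, *G630008E18* (r = 0.95) and *Gm4926* (r = 0.95). These samples fall into 4 groups and share their libraries, and no p is given. *Gm4926* had a mean of 52.0 CPM in the WT caput, 1.24 in the ArKI caput, 2.42 in the WT IS and 0.226 in the ArKI IS. *Ppa1* had 139 CPM in the WT caput and between 74.3 and 82.7 in the other 3 groups.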

How the data were processed

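Total RNA of 5 samples per genotype from each epididymal segment and 3 per genotype from the testis was analysed. The authors aligned the reads to mm10 and deposited raw counts of uniquely mapped reads for each RefSeq gene, without normalization. The processing notes name bcl2fastq 1.8.4 and Subread 1.5.1. Whether strand was used in counting is not given in the sources used here. The 8 members and the gene lists were chosen with earlier results of these data known. Results on certain items are not reported here.

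The tissues were tested separately in R 4.3.3 with edgeR 4.0.16: filterByExpr (minimum count 10, total 15), TMM, a robust quasi-likelihood fit and Benjamini-Hochberg adjustment. Genes were called at an FDR below 0.01, or 0.2 in the testis, and a fold change above 2. Interactions used the FDR alone. Intervals of log2 fold changes are approximate. Members below the filter with over 3 counts in a sample were compared by exact permutation tests. Where no sample of the lower group had over 3 counts, the fold was computed against 3 counts per library. All 8 members were described in every group, with the other Rhox rows. Genes of the lists that were called are named for the comparisons of genotypes within a tissue, and those of the pathway lists for the WT segments too. Genes named from the lists at an FDR below 0.05 or without a call were chosen after their values were seen. Depth ranged from 4125768 to 21376604 counts. Sequences came from GENCODE M21 transcripts and RefSeq promoter windows. Alternatives were RLE factors, library size only, no filter, DESeq2 1.42.0, limma 3.58.1 with voom, a replicate block, other thresholds and leaving out each replicate. The fits were tested on simulated data. Figures were drawn with matplotlib 3.10.9.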

Additional observations from a re-analysis of the deposited data

Results flagged for a closer look

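The genotype difference of *Rhox5* was not the same in the caput and the testis, by a test of the difference itself that was added after the values had been seen (adjusted p = 2.327e-10 by edgeR's quasi-likelihood test, 16 samples). All 5 ArKI caput samples were at 0 counts and below all 5 WT samples, and 2 of 3 ArKI testis samples were above all 3 WT samples. For *Rhox8* the same test gave an adjusted p of 0.0003976, with 20 counts over the WT and 1 over the ArKI caput samples and 689 counts over the WT and 875 over the ArKI testis samples. *Rhox8* passed the filter of that fit only through its testis counts, and its caput counts were around the floor of detection. In the WT caput, the one group of 5 samples in which a Rhox gene had more than 3 counts in a sample, no sample stood apart for *Rhox5*, *Rhox8* or *Rhox10* by Dixon's criterion.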

How the results depend on the processing

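The caput call of *Rhox5* stood in all alternatives, with adjusted p from 5.67e-17 to 8.06e-06, and so did its call in the WT caput against the WT IS and the 4 calls in each comparison with the WT testis. With every gene of at least 1 count tested, the members called were 2 lower in the ArKI caput and 3 higher in the WT caput than in the WT IS, where the filter left 1 member to test in each. The segment interaction had 0 members past the threshold and 1, *Rhox5*, with DESeq2 (adjusted p = 7.2e-05), with limma and voom (adjusted p = 7.47e-07) and at an FDR below 0.05 with no fold limit (adjusted p = 0.0344). In the testis no alternative called a member. Leaving out single replicates gave log2 fold changes from -0.136 to 0.236 for *Rhox11*, which was below 0 only without WT testis replicate 1, and from -0.236 to 0.00766 for *Rhox13*, which was above 0 without WT testis replicate 3 and without ArKI testis replicate 2. The difference of *Rhox1* in log2(CPM + 0.5) ranged from -0.0286 to 0.211 and turned only without ArKI testis replicate 3. The causes were not tested. The calls of the caput and testis comparison, chosen after seeing the data, were the same 2 members under each alternative.

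The numbers did not meet the bar for pairing: correlations between genotypes of the deviations of same-numbered samples from their group means were -0.0945 to 0.201 in the IS, -0.188 to 0.198 in the caput and -0.00481 to 0.0556 in the testis, with 2 of 5, 2 of 5 and 0 of 3 pairs over 0.1. Between IS and caput, which share mice, they were -0.0121 to 0.185 in WT, with 3 of 5 over 0.1, and -0.149 to 0.215 in ArKI, with 1 of 5. With a replicate block *Rhox5* had an adjusted p of 8.06e-06 in the caput, 0.230 in the testis, 3.73e-10 for the WT caput against the WT IS and 0.0809 for the segment interaction, and the block changed no call of a member. Depth limits *Rhox9* and *Rhox12*, with at most 2 counts in a sample, and *Rhox1* and *Rhox10*, with at most 12.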

Other observations

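*Rhox5* was the only one of 23337 genes with at least 10 counts in all 5 WT caput samples and 0 in all 5 ArKI caput samples, and it was also the only one at a minimum of 20 counts. This was counted after the values of *Rhox5* had been seen. At a minimum of 5 counts, *Txndc3*, a thioredoxin family gene of sperm, joined it. No gene had at least 5 counts in all ArKI caput samples and 0 in all WT caput samples, and at a minimum of 3 counts there were 2, *Cntn4*, a cell adhesion gene, and *Irx4*, a homeobox gene. In the IS and the testis no gene reached 5 counts in all samples of one genotype with 0 in the other.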
